A study of Homo sapiens with 12 samples.

Results

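A group of 10 genes of the actin cytoskeleton and its transcription factor were followed in 2 human keratinocyte lines under oxidative stress. They were taken by name from the table of gene counts and are the serum response factor SRF, the cytoplasmic actins ACTB and ACTG1, the adhesion and crosslinking proteins VCL and FLNA, the calponin family genes TAGLN, TAGLN2 and CNN2, the tropomyosin gene TPM1 and the myosin light chain gene MYL9. All 10 were found among the 58735 genes of the table, each under 1 identifier, and all 10 belonged to the 16618 genes tested, those averaging at least 10 raw counts. HaCaT is an immortalized line from human skin and TIGK a telomerase-immortalized line from human gingiva, so each cell type is represented by a single line. Cells of both lines were grown to confluency in DermaLife K medium and then either left untreated or given H2O2 at 5 mM for 3 h, and each of the resulting 4 groups had 3 libraries. For treated replicates 2 and 3 of both lines the labels write the formula as H2O3 and H2O4, while the protocol names H2O2 for all of them. Nothing in the labels says that the replicates came from separate cultures, so the p-values measure the spread between these samples, which may be technical.

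SRF binds a short DNA element, the CArG box, in front of its target genes. It acts with 2 kinds of partner: ternary complex factors such as ELK1, which respond to MAP kinase signalling and serve immediate early genes such as FOS, and the myocardin-related factors MRTFA and MRTFB, which are held back by free actin monomers and serve genes of the cytoskeleton. Many actin genes are thereby under the control of the state of actin itself. In keratinocytes, actin filaments, their crosslinkers and the vinculin-containing adhesions carry the forces of cell attachment and of movement into a wound. Migration in a scratch assay was also measured in the study, but not in these libraries, and is not analysed here.

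The CArG box was searched on both strands in the RefSeq promoter windows of GRCh38.p14, which run from 250 bases before to 50 bases after a start site. Of the 10 genes, 7 had an entry (ACTB, TAGLN and MYL9 were not analysed here), and 4 of these 7 held the element. Over all genes with a window it was found in 438 of 27305 (1.60%). The 10 genes were grouped as actin cytoskeleton genes and SRF targets. A share above that of all genes thus follows from the choice and is no result of this search. The last 100 bases before the start site are shown for these 4 genes because they hold the elements of the regulator's own gene and of 3 structural genes. Capitals mark the CArG box.

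SRF (chr6:43171169-43171268, plus strand): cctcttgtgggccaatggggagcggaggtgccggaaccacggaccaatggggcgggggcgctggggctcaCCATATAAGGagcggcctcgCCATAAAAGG

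ACTG1 (chr17:81512800-81512899, minus strand): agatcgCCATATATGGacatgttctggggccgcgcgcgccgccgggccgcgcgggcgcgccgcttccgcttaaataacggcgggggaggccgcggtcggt

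CNN2 (chr19:1026508-1026607, plus strand): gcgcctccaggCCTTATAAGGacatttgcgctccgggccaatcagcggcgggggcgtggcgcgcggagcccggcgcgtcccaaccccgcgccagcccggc

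FLNA (chrX:154374635-154374734, minus strand): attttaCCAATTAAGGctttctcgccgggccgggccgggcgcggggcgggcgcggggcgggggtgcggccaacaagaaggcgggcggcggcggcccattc

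SRF held 2 CArG boxes, which begin 30 and 10 bases before its start site. Only 11 of all 35116 windows (0.0313%) held 2 or more. The single boxes of ACTG1 and FLNA begin 94 bases and that of CNN2 89 bases before the start. In VCL, TPM1 and TAGLN2 these letters were not in the window searched, which says nothing of elements elsewhere. A match is a description of the sequence and not a measured binding site.

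The libraries held between 30426401 and 49034244 counts in all, and the 10 genes took up 1.20% to 1.46% of each. Normalized counts are counts after edgeR's TMM normalization, scaled to the mean library size, and a gene was called upregulated or downregulated where the adjusted p of edgeR's quasi-likelihood test over all tested genes was under 0.01. Each of 8 keratinocyte markers reached at least 1 FPKM in every library. Replicates differed by more than counting noise in all 12 pairs, so every library was kept as a sample of its own.

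With H2O2, HaCaT raised the transcripts of 3 of the 10 genes, ACTB, TPM1 and TAGLN2, and lowered those of VCL and FLNA. TIGK raised SRF and lowered the same VCL and FLNA. The changes of the raised genes were modest, at most 1.28-fold, and the largest change of all was the 1.73-fold fall of VCL in TIGK. Over all genes tested, 18.9% were called higher and 15.2% lower in HaCaT, and 10.2% and 12.9% in TIGK. In either direction 5 of the 10 were called in HaCaT beside 34.1% of all genes, and 3 in TIGK beside 23.2%. In these bulk libraries, fewer cells with a transcript and less of it per cell cannot be told apart.

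**Figure D1:**
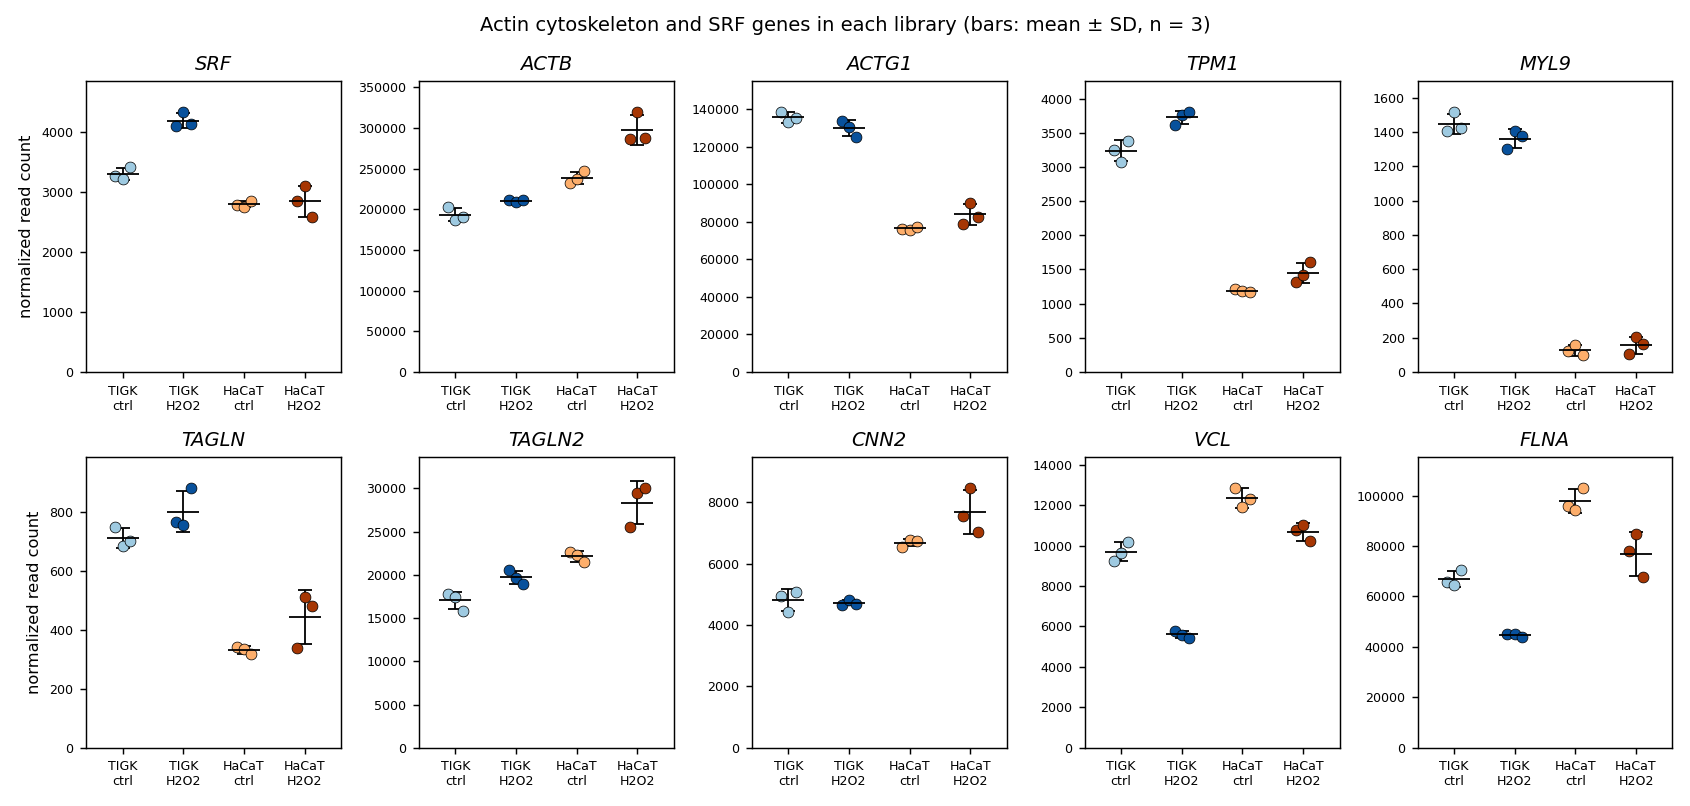
Normalized read counts of the 10 genes (vertical axes from 0, a scale for each gene) in untreated and H2O2-treated TIGK and HaCaT. Each point is 1 library and the bars are mean ± SD of 3 libraries. VCL and FLNA lie lower after H2O2 in both lines, SRF lies higher in treated TIGK, and MYL9 and TPM1 are several times higher in TIGK than in HaCaT under both conditions.

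SRF (ENSG00000112658, chr6:43171299-43181507, plus strand) had 2780, 2749 and 2843 normalized counts in the 3 untreated HaCaT libraries and 2843, 3103 and 2581 after H2O2. Untreated TIGK had 3263, 3215 and 3407, and treated TIGK 4089, 4323 and 4124. The HaCaT groups overlap, with the lowest library among the treated ones, while all treated TIGK libraries lie above all others. In TIGK this was a 1.27-fold upregulation (log2 fold change 0.34, SE 0.0616, adjusted p = 2.71e-04). In HaCaT the log2 fold change was 0.03 (SE 0.0623, adjusted p = 0.768). The difference of the 2 responses was 0.32 (SE 0.0876) and missed the limit, with an adjusted p of 0.0239. DESeq2 put the same difference under the limit, with 0.34 and an adjusted p of 0.00481. The untreated lines already differed, SRF being 1.18-fold lower in HaCaT (log2 -0.24, adjusted p = 0.00212).

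ACTB (ENSG00000075624, chr7:5527147-5563784, minus strand) and ACTG1 (ENSG00000184009, chr17:81509971-81523847, minus strand) encode the beta and gamma actins, the building blocks of filaments in nonmuscle cells. ACTB had 232059, 237299 and 246624 normalized counts in untreated HaCaT and 285743, 319267 and 288063 after H2O2. In TIGK the values were 203013, 186689 and 190823 without and 211817, 208566 and 211285 with H2O2. The treated libraries lie above the untreated ones in both lines, with a wider gap in HaCaT. ACTB was upregulated 1.25-fold in HaCaT (log2 0.32, SE 0.0523, adjusted p = 8.04e-05). In TIGK the log2 fold change of 0.12 (SE 0.0523, adjusted p = 0.0767) did not pass.

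ACTG1 had 76215, 75583 and 77442 normalized counts in untreated HaCaT and 78925, 90148 and 82662 after H2O2. Untreated TIGK libraries held 138309, 132929 and 135282, and treated ones 133664, 130552 and 125102. Every TIGK library is above every HaCaT library, and the TIGK groups overlap. The response was 0.14 in HaCaT (log2, SE 0.0523, adjusted p = 0.0410) and -0.06 in TIGK (SE 0.0522, adjusted p = 0.377), neither under the limit. Per base of gene model ACTB stood at 1868 ± 57.7 FPKM (SD, n = 3) and ACTG1 at 703 ± 8.70 FPKM in untreated HaCaT, against 1514 ± 66.4 and 1247 ± 24.8 FPKM in untreated TIGK.

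The 2 actins are close relatives, and the ratio of one to the other within a library does not depend on the scaling of the libraries. Per base, ACTB exceeded ACTG1 by a ratio of 2.59, 2.67 and 2.71 in untreated HaCaT and of 3.08, 3.01 and 2.96 after H2O2. In TIGK the ratio was 1.25, 1.19 and 1.20 without and 1.35, 1.36 and 1.44 with H2O2. It was far higher in all HaCaT than in all TIGK libraries, and higher after H2O2 in each line with no overlap. The mean rose from 2.66 ± 0.0607 to 3.02 ± 0.0579 in HaCaT and from 1.21 ± 0.0297 to 1.38 ± 0.0483 in TIGK, a log2 difference of 0.18 and 0.19. Between the lines it differed by 1.13 on the log2 scale both before and after H2O2. With 3 against 3 libraries, the exact permutation test (two-sided) cannot go below the p = 0.1 that all 4 comparisons gave. In the GENCODE v44 coding transcripts of the 2 genes, 0 of 4655 windows of 150 bases of ACTB also occurred in ACTG1. Between the longest coding transcript of each gene, the longest shared run was 59 bases. The 10 ACTB pseudogenes in the table held 0.0527% of the count of ACTB and the 20 ACTG1 pseudogenes 0.0318% of that of ACTG1.

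**Figure D2:**
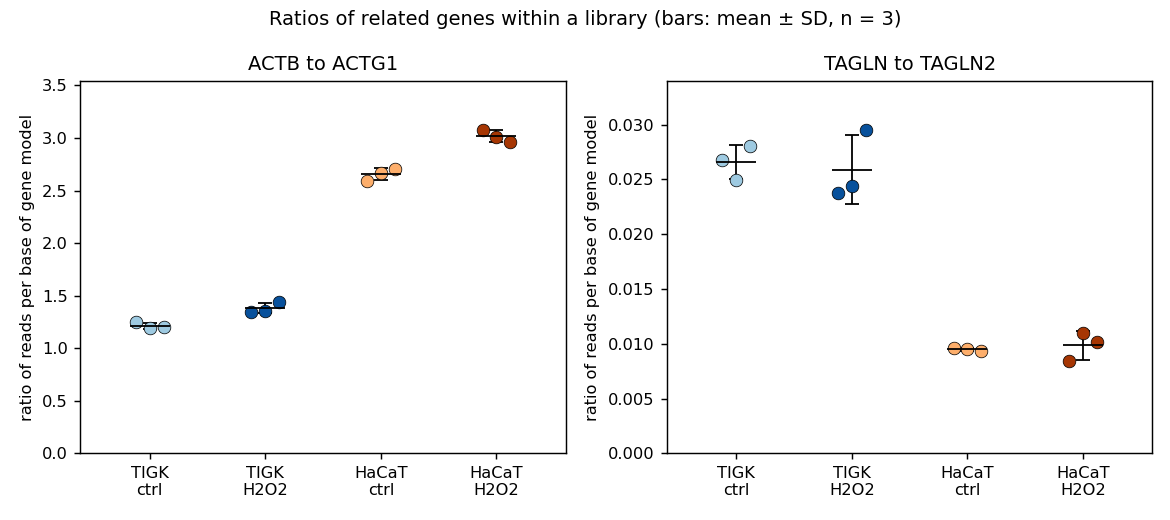
Ratio of reads per base of gene model (vertical axes from 0) of ACTB to ACTG1 and of TAGLN to TAGLN2 in each library of the 4 groups. Points are libraries and bars are mean ± SD of 3. The actin ratio is 2.66 in untreated HaCaT and 1.21 in untreated TIGK and is higher after H2O2 in both, while the TAGLN to TAGLN2 ratio separates the lines but not the treatments.

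VCL (ENSG00000035403, chr10:73995193-74121363, plus strand) encodes vinculin, which couples integrin and cadherin adhesions to actin. Its normalized counts were 12849, 11897 and 12325 in untreated HaCaT and 10773, 11037 and 10202 after H2O2. In TIGK they were 9258, 9608 and 10195 without and 5792, 5586 and 5438 with H2O2. All treated libraries lie below the untreated ones of their line, and the gap is far wider in TIGK, where even the highest treated library is well under the lowest untreated one. VCL fell 1.73-fold in TIGK (log2 -0.79, SE 0.0549, adjusted p = 2.71e-09) and 1.16-fold in HaCaT (log2 -0.21, SE 0.0542, adjusted p = 0.00362). The call in HaCaT was lost without untreated replicate 1 (adjusted p = 0.0254) and without treated replicate 3 (adjusted p = 0.0127). The falls differed between the lines by -0.58 (log2, TIGK minus HaCaT, SE 0.0770, adjusted p = 6.88e-05). AP3M1 lies on the opposite strand and overlaps VCL by 1109 bases, its count being 31.6% of that of VCL. The strand setting of the counting is not given in the sources used here. AP3M1 itself rose, by 0.35 in HaCaT (adjusted p = 2.39e-04) and 0.42 in TIGK (adjusted p = 4.98e-05), the reverse of VCL.

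FLNA (ENSG00000196924, chrX:154348524-154374638, minus strand) encodes filamin A, which crosslinks actin filaments into networks and ties them to membrane receptors. It had 96018, 94222 and 103079 normalized counts in untreated HaCaT and 78088, 84959 and 67553 after H2O2. Untreated TIGK had 65900, 64626 and 70659, and treated TIGK 45185, 44989 and 43918. The treated libraries lie below the untreated ones in both lines, with a wide spread in treated HaCaT and a narrow one in treated TIGK. FLNA fell by 21.4% in HaCaT (log2 -0.35, SE 0.0675, adjusted p = 3.96e-04) and fell by 33.3% in TIGK (log2 -0.59, SE 0.0677, adjusted p = 2.27e-06). The difference of -0.24 between these responses did not pass (SE 0.0953, adjusted p = 0.117), but did without treated HaCaT replicate 3 (-0.32, adjusted p = 0.00633).

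Gene length moved with the response across all genes, and VCL and FLNA are long, with gene models of 9992 and 10585 bases. Over the 16618 genes, Spearman's rank correlation of length with the log2 fold change was -0.202 in HaCaT and -0.125 in TIGK, a description across genes, which share the libraries and are not replicates. When the genes were divided by length into 10 classes of near equal size, the class of the longest models, which holds FLNA, had a median response of -0.22 in HaCaT and -0.14 in TIGK. In the class just below, which holds VCL, the median was -0.09 and -0.07. The falls of VCL and FLNA in TIGK lie well below these medians and those in HaCaT nearer to them. TPM1, with the longest model of the 10 at 12876 bases, lay above 0 in both lines. These lengths are those of the deposited gene models, and the lengths of the transcripts present were not measured. The part of gene length in these falls was not tested.

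**Figure D3:**
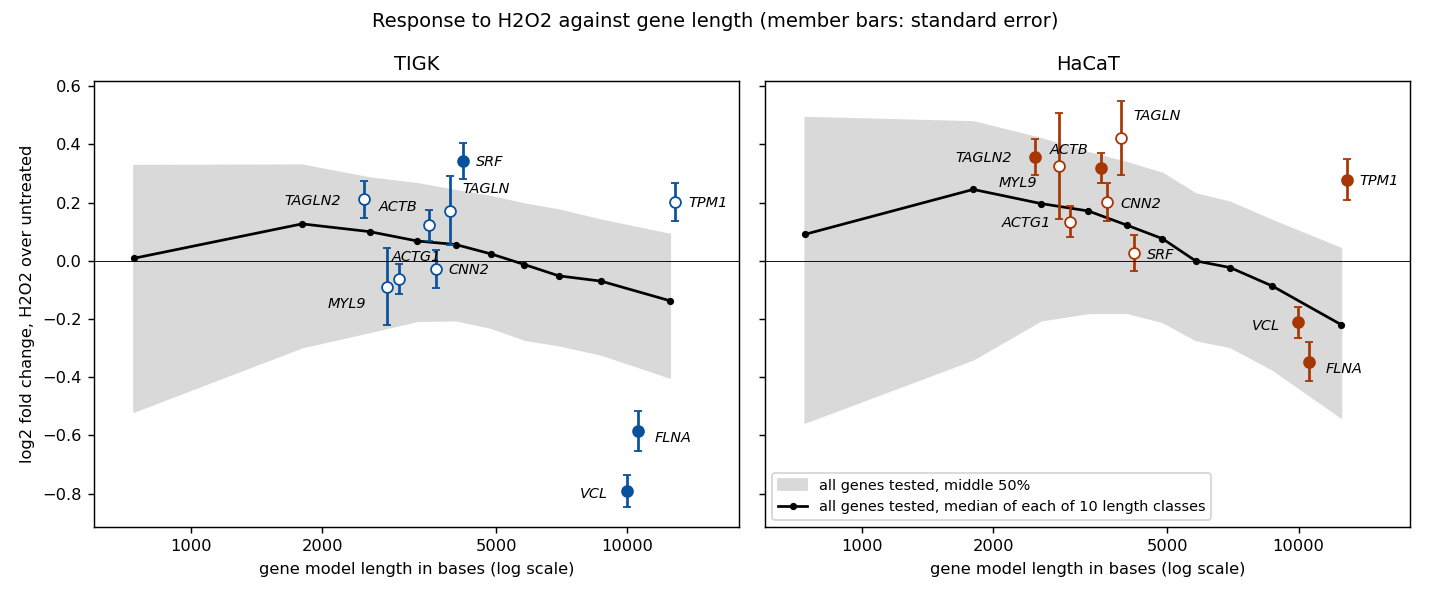
Log2 fold change with H2O2 against the length of the gene model (log scale) in TIGK and HaCaT. The black line joins the medians of 10 length classes of all 16618 genes and the grey band spans the middle 50% of each class. Coloured points with standard errors are the 10 genes, open where the adjusted p was 0.01 or above. VCL and FLNA lie below the band in TIGK and within it in HaCaT.

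TAGLN, TAGLN2 and CNN2 encode transgelin, transgelin-2 and calponin-2, small proteins of the calponin family that bind and stabilize actin filaments. TAGLN2 (ENSG00000158710, chr1:159918107-159925732, minus strand), the form most widely expressed outside muscle, had 22638, 22345 and 21473 normalized counts in untreated HaCaT and 25560, 29499 and 30062 after H2O2. In TIGK it had 17801, 17459 and 15870 without and 20507, 19695 and 18979 with H2O2. Treated libraries lie above untreated ones in both lines. TAGLN2 was upregulated 1.28-fold in HaCaT (log2 0.36, SE 0.0632, adjusted p = 1.69e-04). In TIGK a log2 fold change of 0.21 (SE 0.0633, adjusted p = 0.0142) missed the limit, which DESeq2 put it under (adjusted p = 0.00477).

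CNN2 (ENSG00000064666, chr19:1026581-1039068, plus strand) had 6549, 6784 and 6723 normalized counts in untreated HaCaT and 7556, 8468 and 7028 after H2O2. In TIGK the counts were 4950, 4419 and 5088 without and 4660, 4826 and 4696 with H2O2. The HaCaT groups do not overlap, whereas the treated TIGK libraries fall inside the range of the untreated ones. The log2 fold changes, 0.20 in HaCaT (SE 0.0651, adjusted p = 0.0166) and -0.03 in TIGK (SE 0.0656, adjusted p = 0.778), did not pass. Without treated HaCaT replicate 3 the former did (0.26, adjusted p = 0.00204).

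TAGLN (ENSG00000149591, chr11:117199321-117204782, plus strand), abundant in smooth muscle, was low in both lines. It had 342, 335 and 317 normalized counts in untreated HaCaT and 338, 512 and 483 after H2O2. TIGK had 750, 686 and 701 without and 766, 758 and 883 with H2O2. Treated HaCaT replicate 1 lies among the untreated libraries and the other two well above them. The log2 fold change in HaCaT was 0.42 (SE 0.127, adjusted p = 0.0108), just outside the limit, and inside it without that library (0.55, adjusted p = 3.10e-04) and with DESeq2 (0.41, adjusted p = 0.00610). In TIGK it was 0.17 (SE 0.119, adjusted p = 0.275). PCSK7 overlaps TAGLN on the opposite strand by 446 bases with a count 275% of that of TAGLN, and fell by 0.55 in HaCaT and 0.48 in TIGK on the log2 scale (adjusted p = 2.41e-04 and 0.00130).

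Per base, TAGLN was far below TAGLN2. The ratio of the former to the latter was 0.00950 ± 0.000116 (SD, n = 3) in untreated HaCaT and 0.00987 ± 0.00134 after H2O2, and 0.0266 ± 0.00156 and 0.0259 ± 0.00318 in TIGK. Treated and untreated libraries overlap in both lines, and the lines do not. The exact permutation test gave p = 0.7 for either treatment and p = 0.1, its smallest value, between the lines under each condition.

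TPM1 (ENSG00000140416, chr15:63042632-63071915, plus strand) encodes a tropomyosin, a coiled coil that lies along the actin filament and governs access of myosin and cofilin to it. It had 1211, 1183 and 1176 normalized counts in untreated HaCaT and 1316, 1413 and 1604 after H2O2. In TIGK it had 3249, 3076 and 3386 without and 3611, 3759 and 3800 with H2O2. The treated libraries are above the untreated ones in both lines, and every TIGK library is far above every HaCaT library. The response in HaCaT was 0.28 (log2, SE 0.0695, adjusted p = 0.00293) and that in TIGK 0.20 (SE 0.0657, adjusted p = 0.0223). The call in HaCaT was lost without untreated HaCaT replicate 2 or 3, treated HaCaT replicate 2 or 3, untreated TIGK replicate 2 or treated TIGK replicate 2 or 3 (adjusted p from 0.0107 to 0.0185), with TMM without the mitochondrial chromosome (0.24, adjusted p = 0.0110) and with the HaCaT groups fitted alone (0.24, adjusted p = 0.0350).

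MYL9 (ENSG00000101335, chr20:36541484-36551447, plus strand) encodes a regulatory light chain of nonmuscle and smooth muscle myosin II, whose phosphorylation switches on contraction. Its normalized counts in HaCaT were 122, 157 and 97.8 without and 106, 204 and 161 with H2O2. In TIGK they were 1407, 1516 and 1423 without and 1300, 1406 and 1379 with H2O2. The HaCaT groups overlap, the TIGK groups touch without overlapping, and the lines are far apart. The responses were 0.33 in HaCaT (log2, SE 0.183, adjusted p = 0.154) and -0.09 in TIGK (SE 0.133, adjusted p = 0.641), neither called.

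**Figure D4:**
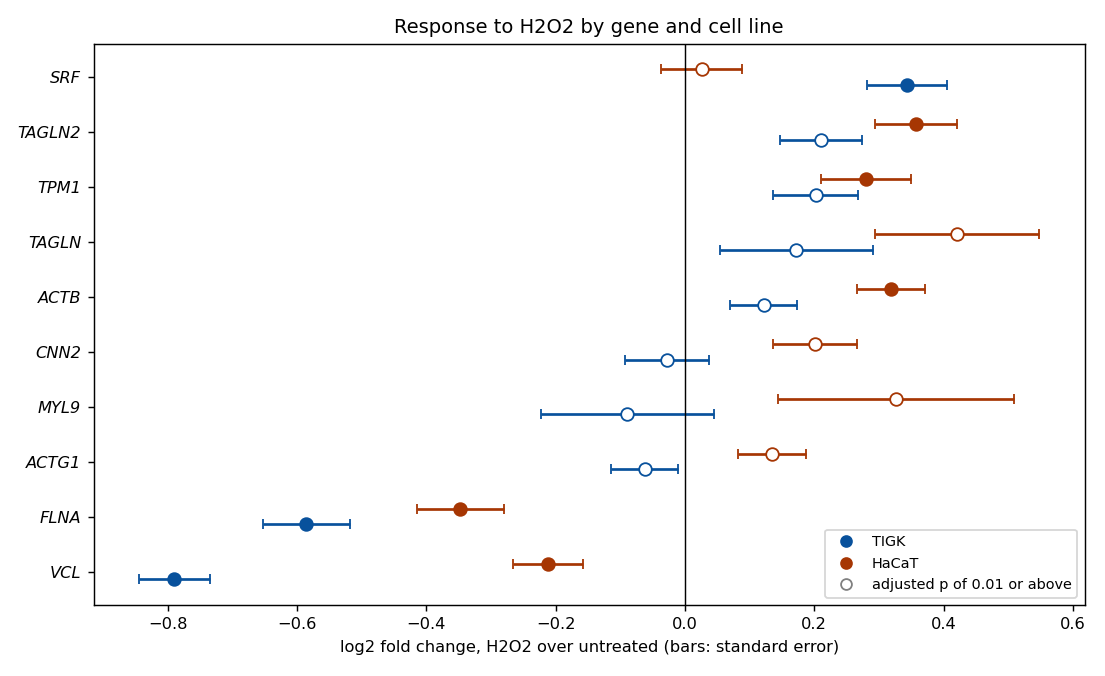
Log2 fold change with H2O2 over untreated for the 10 genes in TIGK and HaCaT, with standard errors from the edgeR fit to 12 libraries. Filled points have an adjusted p under 0.01. VCL and FLNA are filled and below 0 in both lines. SRF is filled in TIGK alone, and TAGLN2, TPM1 and ACTB in HaCaT alone, a contrast that for these 4 genes did not pass the test of the difference.

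Set side by side, the responses of the 10 genes had a median of 0.24 in HaCaT and 0.05 in TIGK on the log2 scale, beside 0.04 and 0.01 over all genes. In HaCaT 7 of the 10 and in TIGK 8 showed no overlap between treated and untreated libraries, as did 53.8% and 51.1% of all genes. For 9 of the 10, all but SRF, the response in TIGK was more negative or less positive than in HaCaT, as it was for 55.2% of all genes. Only that of VCL passed the test of the difference, in which 2.98% of all genes were called lower and 2.32% higher, 5.3% in all. Unadjusted p-values under 0.05 were found for 6 of the 10 and for 25.8% of all genes. SRF, the 1 gene with a positive value, was not called in the edgeR fit used throughout (adjusted p = 0.0239). It was called with DESeq2 (adjusted p = 0.00481), and with edgeR under another scaling or filters (adjusted p from 0.00299 to 0.00780) and without treated HaCaT replicate 1 or 2 (adjusted p = 0.00806 and 0.00188).

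Between the lines the 10 genes split evenly. ACTB, TAGLN2, CNN2, VCL and FLNA were higher in HaCaT, and SRF, ACTG1, TPM1, MYL9 and TAGLN were higher in TIGK, both without and with H2O2. Of all genes, 29.1% were higher and 30.8% lower in HaCaT without H2O2, and 30.2% and 29.8% with it, so that all 10 were called beside 59.9% and 60.0% of all genes. All 10 showed no overlap between the lines under either condition, as did 73.3% and 71.3% of all genes. The comparisons without and with H2O2 used different libraries, but each shares its libraries with the responses above.

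The widest gap was that of MYL9, 11.6-fold lower in untreated HaCaT than in untreated TIGK (log2 -3.53, SE 0.161, adjusted p = 3.57e-13) and 8.69-fold lower after H2O2 (log2 -3.12, SE 0.159). TPM1 was 2.72-fold and 2.58-fold lower in HaCaT, TAGLN 2.15-fold and 1.81-fold, and ACTG1 1.77-fold and 1.55-fold. On the per-base scale MYL9 was at 1.23 ± 0.290 FPKM in untreated HaCaT and 14.1 ± 0.577 FPKM in untreated TIGK. On the other side, FLNA was 1.46-fold higher in HaCaT without H2O2 and 1.72-fold with it, VCL 1.28-fold and 1.90-fold, CNN2 1.39-fold and 1.63-fold, TAGLN2 1.30-fold and 1.44-fold, and ACTB 1.23-fold and 1.41-fold. For each of these 5 the distance between the lines was wider after H2O2, a widening that is the difference of responses given above and passed for VCL alone.

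Levels of markers of other cell types stand beside the higher MYL9, TPM1 and TAGLN of TIGK. The summed level of 6 smooth muscle markers was 0.128 to 0.332 FPKM in the HaCaT libraries and 0.470 to 0.660 FPKM in the TIGK libraries, with DES at no more than 2 counts in any library and MYH11 at no more than 70. A set of 7 fibroblast markers summed to 0.867 to 1.14 FPKM in HaCaT and 2.22 to 2.67 FPKM in TIGK, most of it COL1A1, while COL1A2 was at 0 counts in every library. Immune and endothelial markers summed to at most 0.168 FPKM. The smooth muscle and fibroblast sums thus lie higher in every TIGK library, but not each marker does. MYH11 had 0.0951 FPKM in untreated HaCaT and 0.0516 in untreated TIGK, and 0.0259 and 0.0143 after H2O2. ACTA2, a relative of ACTB and ACTG1, was the largest part of the smooth muscle sum without H2O2. It had 0.319 FPKM in untreated TIGK and 0.133 in untreated HaCaT. The part of these markers in the differences was not tested. By normalized counts, untreated TIGK and HaCaT had 14.1 and 1.23 FPKM of MYL9, 6.92 and 2.55 FPKM of TPM1 and 5.01 and 2.33 FPKM of TAGLN. The marker levels were scaled by library totals instead.

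The order of the 4 groups differed by gene. For SRF, TPM1 and TAGLN it ran from treated TIGK over untreated TIGK and treated HaCaT to untreated HaCaT, for ACTG1 and MYL9 from untreated TIGK over treated TIGK and treated HaCaT to untreated HaCaT. ACTB and TAGLN2 ran from treated HaCaT over untreated HaCaT and treated TIGK to untreated TIGK, and CNN2 likewise except that its TIGK groups changed places. VCL and FLNA ran from untreated HaCaT over treated HaCaT and untreated TIGK to treated TIGK. Neighbours overlapped between the HaCaT groups of SRF, MYL9 and TAGLN, between the TIGK groups of ACTG1 and CNN2, and between treated HaCaT and untreated TIGK for FLNA. From the highest to the lowest group mean the span was 1.54-fold for ACTB, 2.20-fold for VCL, 2.19-fold for FLNA and 11.5-fold for MYL9.

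Around these genes stand 6 lists of the pathway, written from general knowledge. Their counts stand beside 18.9% of all genes called higher and 15.2% lower in HaCaT, and 10.2% and 12.9% in TIGK. Of the 5 SRF cofactors tested, 1 was lower in HaCaT and 2 in TIGK. Neither edgeR nor DESeq2 called any of them higher, and 0 had a positive change with an unadjusted p under 0.05. MYOCD, the cofactor of heart and smooth muscle, was at 0 counts in all libraries. ELK4, a ternary complex factor, fell in HaCaT from 3480 ± 207 to 2522 ± 158 normalized counts (SD, n = 3; log2 -0.46, adjusted p = 6.40e-05). ELK3, another, fell in TIGK from 2138 ± 122 to 1544 ± 72.4 (log2 -0.47, adjusted p = 1.15e-05). ELK4 had -0.25 in TIGK (adjusted p = 0.0154) and ELK3 -0.13 in HaCaT (adjusted p = 0.0974). With edgeR neither difference of responses was called (adjusted p = 0.201 for ELK4 and 0.0156 for ELK3). DESeq2 called 1 of the 5 cofactors lower in the difference, beside 718 of all 16618 genes.

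SRF's immediate early targets rose strongly in both lines, 9 of 10 in each, with a list median of 3.40 in HaCaT and 3.74 in TIGK on the log2 scale. FOS, a subunit of the AP-1 factor, rose from 270 ± 41.9 to 20645 ± 5091 normalized counts in HaCaT (log2 6.26, SE 0.178, adjusted p = 5.20e-15) and from 804 ± 119 to 9488 ± 1357 in TIGK (log2 3.56, SE 0.155). NR4A1, an orphan nuclear receptor, rose from 299 ± 12.7 to 8893 ± 235 in TIGK (log2 4.89, SE 0.0832, adjusted p = 1.91e-18) and by 4.54 in HaCaT. The responses differed between the lines for 5 of the 10, with 3 larger in TIGK and 2 in HaCaT. Of all genes, 5.3% were called in this test, 2.32% higher and 2.98% lower. EGR4 alone was not called in either line.

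Among 14 genes of adhesion and crosslinking, the neighbours of VCL and FLNA, 6 were lower in HaCaT and 8 in TIGK. In each line edgeR and DESeq2 called 0 higher, and 1 had a positive change with an unadjusted p under 0.05. The median was 0.03 in HaCaT and -0.23 in TIGK. The genes called lower had a median gene model of 7043 bases in HaCaT and 8651.5 bases in TIGK. Those not called had one of 5700 bases in each line, and the part of length in these calls was not tested. PDLIM5, a scaffold at the Z-disc and on stress fibres, fell from 9143 ± 458 to 5542 ± 155 normalized counts in TIGK (log2 -0.72, SE 0.0546, adjusted p = 8.76e-09) and by 0.33 in HaCaT, and these responses differed by -0.39 (adjusted p = 0.00295). FHL2, a LIM protein that is also a cofactor of transcription, fell from 4295 ± 188 to 2630 ± 266 in HaCaT (log2 -0.71, SE 0.0799, adjusted p = 1.40e-06). In TIGK FHL2 had a log2 fold change of -0.13 (adjusted p = 0.225), and the difference of 0.58 was called (adjusted p = 0.00226). The focal adhesion genes TLN1 (talin) and PXN (paxillin) were lower in both lines. TLN1 changed by -0.27 in HaCaT and -0.24 in TIGK, and PXN by -0.44 and -0.39.

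Of 7 relatives of the 10 genes that could be tested, 2 were lower in HaCaT and 1 in TIGK, beside 15.2% and 12.9% of all genes. Both edgeR and DESeq2 called 0 higher, beside 1 in HaCaT and 0 in TIGK with a positive change and an unadjusted p under 0.05. The genes of muscle ACTA1, ACTC1, ACTG2 and CNN1 had too few counts to be tested. FLNC, the filamin of muscle, fell from 12935 ± 456 to 7687 ± 87.3 normalized counts in TIGK (log2 -0.75, SE 0.0701, adjusted p = 1.62e-07). In HaCaT it fell from 36.9 ± 12.9 to 17.2 ± 4.96 (log2 -1.11, adjusted p = 0.00128), a call lost with the HaCaT libraries fitted alone (adjusted p = 0.0408). TAGLN3 fell from 143 ± 35.3 to 23.6 ± 10.4 in HaCaT (log2 -2.60, SE 0.345, adjusted p = 8.65e-06) and had -1.14 in TIGK (adjusted p = 0.0145).

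Of 11 genes of myosin and its regulators, 3 were higher and 6 lower in HaCaT, and 1 was higher and 3 lower in TIGK. MYL12A, a regulatory light chain, rose from 2835 ± 110 to 3995 ± 530 normalized counts in HaCaT (log2 0.49, adjusted p = 9.01e-05) and had 0.26 in TIGK (adjusted p = 0.0167). MYL6, the essential light chain, rose from 8664 ± 1192 to 11866 ± 408 in TIGK (log2 0.45, adjusted p = 0.00323), a call lost without untreated or treated TIGK replicate 3 (adjusted p = 0.0213 and 0.0139). It was called higher in HaCaT too, a call lost without untreated HaCaT replicate 3 (0.41, adjusted p = 0.0145). MYH9, the main nonmuscle heavy chain, fell from 78884 ± 4125 to 42523 ± 465 in TIGK (log2 -0.89, SE 0.0603, adjusted p = 1.83e-09) and by 0.49 in HaCaT, a difference of -0.40 that was called (adjusted p = 0.00426). MYH14 fell from 1475 ± 194 to 767 ± 69.1 in HaCaT (log2 -0.94, adjusted p = 2.62e-07) and had -0.18 in TIGK (adjusted p = 0.120), and this difference of 0.76 was called too (adjusted p = 6.77e-04). In HaCaT the genes called lower had a median gene model of 10268.5 bases and those called higher one of 3245 bases, and the part of length in these calls was not tested.

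The list of actin monomer binding and filament turnover had 14 of 25 genes higher and 1 lower in HaCaT, but 2 higher and 2 lower in TIGK. Of the 25, 0 passed the test of the difference between the lines with edgeR or DESeq2, beside 5.3% of all genes with edgeR. A more negative or less positive response in TIGK at an unadjusted p under 0.05 was found for 7, and for 2490 of all 16618 genes. PFN1, profilin, which feeds monomers to growing filaments, rose from 17463 ± 471 to 25247 ± 2702 normalized counts in HaCaT (log2 0.53, SE 0.0674, adjusted p = 5.13e-06) and had 0.20 in TIGK (adjusted p = 0.0274). CFL2, a cofilin that severs filaments, rose by 0.44 in both lines, from 821 ± 29.9 to 1116 ± 56.2 in TIGK (adjusted p = 2.73e-04). DIAPH1, a formin that builds filaments, was lower in both, by -0.48 in HaCaT (adjusted p = 5.05e-06) and -0.52 in TIGK (adjusted p = 2.66e-06).

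**Figure D5:**
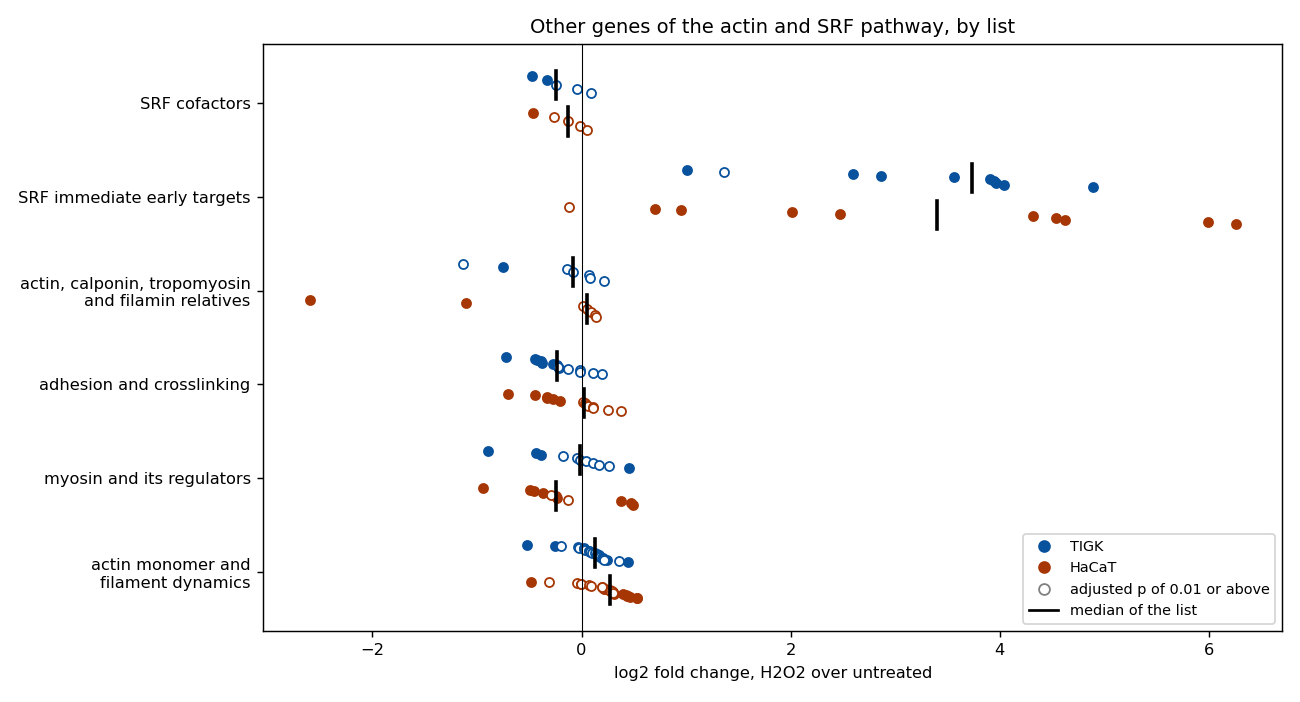
Log2 fold change with H2O2 over untreated for the genes of 6 lists in TIGK and HaCaT. Each point is a gene, filled where the adjusted p was under 0.01, and black bars are list medians. The immediate early targets lie far to the right in both lines with medians of 3.40 and 3.74, all called genes of the adhesion list lie to the left of 0, and the list of filament dynamics has 14 called genes above 0 in HaCaT and 2 in TIGK.

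The 5 genes whose log2 CPM ran most like that of SRF over the 12 libraries, among 11772 genes with a mean of at least 100 normalized counts, were ZFAT, CDC73, CRTC1, IRS2 and TMEM125, with Pearson's r from 0.969 to 0.979. Of the other 9 genes followed here, TPM1 came closest with r of 0.857 at rank 651, and VCL was farthest with -0.923. The 12 points share 2 lines and 2 conditions, so these values describe the pattern of 4 groups.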

How the data were processed

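RNA of HaCaT and TIGK keratinocytes, untreated or after H2O2, was measured in 12 libraries. The authors deposited raw read counts per gene, which according to the sources used here were mapped to GRCh38 with HISAT2 (2.0.5 in the study's methods and 2.0.0 in the submitters' processing notes) and counted with featureCounts 1.5.0-p3. The annotation release, the strand setting and the handling of reads with several matches are not given in the sources used here. The other files the authors deposited hold the fold changes and p-values of their own DESeq2 comparisons and were not used. Groups were taken from the labels.

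All 12 libraries were fitted together, for genes averaging 10 raw counts or more, with edgeR 4.0.16 in R 4.3.3 (TMM normalization, factors from 0.962 to 1.04, quasi-likelihood test, 1 mean per group). P-values were adjusted after Benjamini and Hochberg over the 16618 genes tested, with a limit of 0.01. FPKM values of the 10 genes were computed from these normalized counts and the gene lengths of the deposited table. Those of the cell type markers were computed from raw counts and library totals, and the ratios per base from raw counts, with the same lengths. Counts were simulated for the response of TIGK, with 16408 genes of which 200 were changed. Of these 200, 197 were recovered, and 1 other gene was called. In a like test of the difference of responses 183 were recovered and 2 others called. Recovery at the fold changes and counts of the 10 genes was not tested separately. The alternatives were DESeq2 1.42.0, the compared groups alone, other scalings, filters and limits, a block on replicate number and the omission of each library. Genes named beyond the 10 were, in each list, the largest rise and fall called in each line that averaged 100 normalized counts or more in 1 of the groups. Other list members named for contrast (FLNC in HaCaT, TLN1, PXN, EGR4, VASP, GSN and the genes of the last section) and the check of gene length were picked after their values were seen. The members of the group and the lists were chosen with earlier results of these data known. Some genes of the pathway are not reported here. Library totals of 30426401 to 49034244 leave the spread between replicates, a chi-square per degree of freedom of 4.36 to 26.9 over 12 pairs, as the main error. The highest values, 26.9 and 18.3, were those of treated HaCaT replicate 3 with treated HaCaT replicates 1 and 2. Correlations of same-numbered libraries' deviations from their group means lay between -0.121 and 0.0257, so the numbers were not treated as pairs.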

Additional observations from a re-analysis of the deposited data

Results flagged for a closer look

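The response of VCL, the vinculin gene, differed between the lines by the test of the difference itself. VCL fell by 0.79 on the log2 scale in TIGK and by 0.21 in HaCaT, a difference of -0.58 (TIGK minus HaCaT, SE 0.0770, adjusted p = 6.88e-05 from edgeR). All 3 treated libraries lay below all 3 untreated ones in each line. Over the alternatives the difference stayed between -0.61 and -0.49, with adjusted p-values of at most 0.00119.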

How the results depend on the processing

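The 10 differences between the untreated and between the treated lines kept their direction under every alternative run. The falls of VCL and FLNA in TIGK and of FLNA in HaCaT also kept their call, except under a demand for a log2 fold change of 1. So did the rises of ACTB and TAGLN2 in HaCaT and of SRF in TIGK, and the difference for VCL. The lower SRF of untreated HaCaT lost its call without untreated HaCaT replicate 2 (adjusted p = 0.0105). Single genes were not counted one by one under that demand. Under the other alternatives, 21 of 80 fold changes of single genes changed their call or sign somewhere. The demand for a log2 fold change of 1 left 0 called higher and 0 lower in either response, 0 lower in the difference of responses, and between the lines 0 higher and 3 lower in untreated HaCaT and 0 and 2 after H2O2. At an adjusted p under 0.05, 6 genes were higher in HaCaT and 3 in TIGK. The share of all genes was not counted at this limit or under that demand. The genes higher in TIGK numbered 2 with DESeq2, library totals or filterByExpr, 3 with the groups fitted alone and 4 without a filter. In the same order of fits, 2218, 1979, 2086, 2125 and 2571 of all genes were higher in TIGK, against 1699. In the difference of responses 1 gene, SRF, was higher with DESeq2, TMM without the mitochondrial chromosome, no filter, filterByExpr or a limit of 0.05.

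With each library left out in turn, the genes higher in HaCaT numbered 2 to 4, those lower in HaCaT 1 to 2, those higher in TIGK 1 to 3, and the difference of responses had 0 to 1 higher and 1 to 2 lower. Over all genes these ranges were, in the same order, 2061 to 3272, 2125 to 2796, 1173 to 2330, 266 to 704 and 186 to 637. The count lower in HaCaT fell to 1 without untreated replicate 1 or treated replicate 3. The count higher in TIGK rose to 3 without treated HaCaT replicate 1 or 3, and to 2 without treated HaCaT replicate 2. Where an arm is left with 2 libraries, the fit pools the spread over groups.

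Values near 0 changed sign. The log2 fold change of SRF in HaCaT was -0.011 with the groups alone, -0.016 with TMM without the mitochondrial chromosome and -0.0026 with filterByExpr, and -0.075 to 0.091 with a library left out. That of CNN2 in TIGK was 0.0057 without a filter, 0.0073 with filterByExpr and -0.061 to 0.013 with a library left out. The TPM1 difference of responses ranged from -0.091 to 0.0054. The log2 difference of the TAGLN to TAGLN2 ratio ranged from -0.037 to 0.16 in HaCaT and from -0.14 to 0.016 in TIGK. The cause was not tested. With FPKM from library totals, the highest over the lowest group mean was 1.60 for SRF, 1.87 for ACTG1, 3.33 for TPM1, 2.07 for VCL and 2.05 for FLNA.

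Replicate numbers were not treated as pairs, and the labels do not say whether they mark any. With a replicate block 3 genes were higher and 2 lower in HaCaT, 1 and 2 in TIGK, 0 and 1 in the difference, and 5 and 5 between the lines, without a lost or gained call. Over all genes, the difference of responses had 385 higher and 496 lower, against 522 and 346 with TMM without the mitochondrial chromosome, 685 higher with DESeq2, 769 higher without a filter, and 326 lower with filterByExpr or the block. With a library left out, it had from 186 lower, without treated TIGK replicate 2, and up to 704 higher, without treated HaCaT replicate 1. The genes called higher numbered 2061 in HaCaT without its treated replicate 2, against 3135, and 2571 in TIGK without a filter, against 1699. The lower depth of MYL9 and TAGLN in HaCaT limits what can be seen of their responses.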

Other observations

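FLNC, PFN2, TPM2 and FHL1, relatives or partners of the 10 genes, each had a larger log2 difference between the untreated lines than any of the 10 (these sizes were not tested against each other). FLNC, the filamin of muscle, had 12935 ± 456 normalized counts in TIGK (SD, n = 3) and 36.9 ± 12.9 in HaCaT, 349-fold lower (log2 -8.45, adjusted p = 4.21e-20 from edgeR). PFN2, a second profilin, had 4264 ± 143 in TIGK and 112 ± 18.5 in HaCaT (log2 -5.26), and TPM2, the beta tropomyosin, 3120 ± 52.0 and 215 ± 17.1 (log2 -3.86). FHL1, a LIM protein of muscle, had 706 ± 21.6 and 38.8 ± 13.3 (log2 -4.22), and MYH10, the heavy chain of nonmuscle myosin IIB, less far apart, 8344 ± 416 and 1909 ± 54.8 (log2 -2.13). In these 5 genes every TIGK library lay above every HaCaT library.

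On the other side, GSN, gelsolin, which severs and caps filaments, was 3.30-fold higher in untreated HaCaT (log2 1.72, adjusted p = 1.61e-15), and VASP, which speeds filament growth at adhesions, 2.90-fold (log2 1.54, adjusted p = 5.27e-15). The genes were picked from the lists for the size of their difference.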
